A study of Mus musculus with 8 samples.

Results

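Intestinal epithelial cells (IECs) release cytokines that reach the lymphocytes and myeloid cells lying next to them. The 9 genes described here, Il7, Il15, Tslp, Csf1, Il33, Il1rn, Tgfb1, Tnfsf10 and Tnfsf13b, were picked by name for that role. The rule uses no measured value, but earlier results of these data were known when the genes were chosen. All 9 were found among the 25239 genes of the deposited table and all 9 received an adjusted p.

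The question was how IECs differ between mice with and without CD1d, a molecule that shows lipid antigens to natural killer T (NKT) cells. Poly(A) RNA was sequenced from 4 CD1d-KO samples, labelled CD1d1/2 KO, and from 4 WT samples, labelled C57BL/6Jax, with no treatment in either group. Each sample held live EpCAM+CD45-CD31-Ter119- cells that were sorted from proximal small intestinal crypts of young adult mice. The study's methods give 1 mouse per sample and state that age and sex were matched. The Y-linked counts given below do not show that match of sex in the sequenced samples. The deletion is present in every cell of the body and CD1d-KO mice lack NKT cells, so loss of CD1d from the IECs and loss of NKT cells cannot be told apart. The samples came from separate experiments, but the labels do not say which, and p-values measure the spread between these samples.

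As background, IL-7 and IL-15 share the common gamma chain as a receptor subunit and sustain T cells, innate lymphoid cells and, for IL-15, the lymphocytes that live within the epithelium. TSLP and IL-33 are alarmins that act on dendritic cells, mast cells and group 2 innate lymphoid cells. CSF1 is the growth factor of macrophages, BAFF (Tnfsf13b) a survival factor of B cells, and TRAIL (Tnfsf10) a ligand that can trigger apoptosis. TGF-beta 1 restrains T cells and favours regulatory and tissue-resident ones, and IL-1 receptor antagonist (Il1rn) blocks the IL-1 receptor.

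Csf1 showed the largest difference of the 9 genes, and the bases before its start site are printed for that reason. The window covers 250 bases upstream of the RefSeq start (GRCm38.p6, the assembly also called mm10), chr3:107760470-107760719 on the minus strand. Capitals mark each match, on either strand, to GGGNNNNNCC, a loose form of the NF-kB motif.
Csf1: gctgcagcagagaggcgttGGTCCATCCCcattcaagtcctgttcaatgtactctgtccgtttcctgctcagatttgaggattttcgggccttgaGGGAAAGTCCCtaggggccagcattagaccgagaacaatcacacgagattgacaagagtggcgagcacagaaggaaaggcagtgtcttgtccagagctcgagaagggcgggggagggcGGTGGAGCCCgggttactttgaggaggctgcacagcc
The window held 4 such matches, at 231 to 222, 155 to 146, 154 to 145 and 37 to 28 bases before the start, the middle pair overlapping by all but 1 base. This motif is common, since 45.8% of the 32851 upstream windows of the same length held at least 1 match. No match was found to TTCNNNGAA (the interferon-gamma activated site, GAS, in 7.02% of windows), to GAAANNGAAA (the interferon-stimulated response element, ISRE, in 2.98%) or, on the coding strand, to TATAAA (7.59%). Upstream windows of 6 of the 9 genes were used. Only Tnfsf13b among those 6 held an ISRE match, GAAAGTGAAA at 16 to 7 bases before the second of its listed starts. A match describes the letters in the window and not a bound site.

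Total counts ranged from 23610266 to 31629435 per sample. The targeted gene Cd1d1 was counted 8, 3, 5 and 0 times in CD1d-KO 1 to 4 and 81, 70, 94 and 50 times in WT 1 to 4, which matches the labels in all 8 samples. Some libraries stood apart from the rest of their group. CD1d-KO 1 and 2 carried 6235 and 7293 counts of Y-linked genes against at most 1 in any other sample, so that WT held no such sample to compare them with. By these counts CD1d-KO 1 and 2 came from males and no WT sample did, so sex was not matched between the groups. The 13 stomach genes summed to 702 to 1521 normalised counts in the CD1d-KO samples, against 2565 to 16570 in the WT samples, the highest being WT 3, and 7 of the 13 were called lower. Gkn3 was the largest part of the CD1d-KO sums on average, with means of 733 in CD1d-KO and 777 in WT. Gkn1 and Gkn2 averaged 23.3 and 48.5 in CD1d-KO against 1198 and 1834 in WT, and were not called. The sorted population carried its labelled markers, with 8 epithelial genes that included Epcam and Cdh1 summing to 327000 to 354200 normalised counts in the CD1d-KO samples against 318200 to 355500 in the WT samples, and 0 of the 8 called (DESeq2 and an adjusted p under 0.05).

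The 9 cytokine genes differed widely in level. As TPM (transcripts on a scale common to all samples), counts divided by exon length and scaled to a common total, the means over 8 samples spanned 101-fold, from 62.8 ± 6.40 (SD) for Tnfsf10 to 0.619 ± 0.271 for Tslp. Il15 stood second at 13.4 ± 1.98 TPM, followed by Tnfsf13b at 7.73 ± 1.47 TPM and Il33 at 3.57 ± 1.10 TPM. These first 4 did not overlap with each other over the 8 samples. Il7 (0.868 to 2.55 TPM) overlapped with Il33 (2.15 to 4.86 TPM), and Il7, Csf1, Tgfb1, Il1rn and Tslp overlapped from each to the next. In WT samples Csf1 was the fifth, at 2.26 ± 0.486 TPM, just above Il7 at 2.04 ± 0.421 TPM. In CD1d-KO samples it was the eighth, at 0.716 ± 0.306 TPM, above Tslp alone, while Il7 at 1.12 ± 0.220 TPM was close to Tgfb1 at 1.12 ± 0.191 TPM.

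Compared with WT, 2 of the 9 genes were called at an adjusted p under 0.05 (DESeq2, adjusted over 15446 genes), and both, Csf1 and Il7, fell in CD1d-KO IECs. None of the 9 was called higher, and 3 had an unadjusted p under 0.05. Across all genes tested, 4.03% were called and 2.38% were called lower. The normalised counts of the 2 genotypes did not overlap for 3 of the 9, Csf1, Il7 and Tnfsf13b, against 9.61% of all genes tested. The estimate was negative for 8 of the 9, and their median log2 fold change was -0.32, beside 0.00099 over all genes tested. A sample of RNA from many cells does not separate fewer cells of one kind from less RNA per cell, which holds for every value here.

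**Figure D1:**
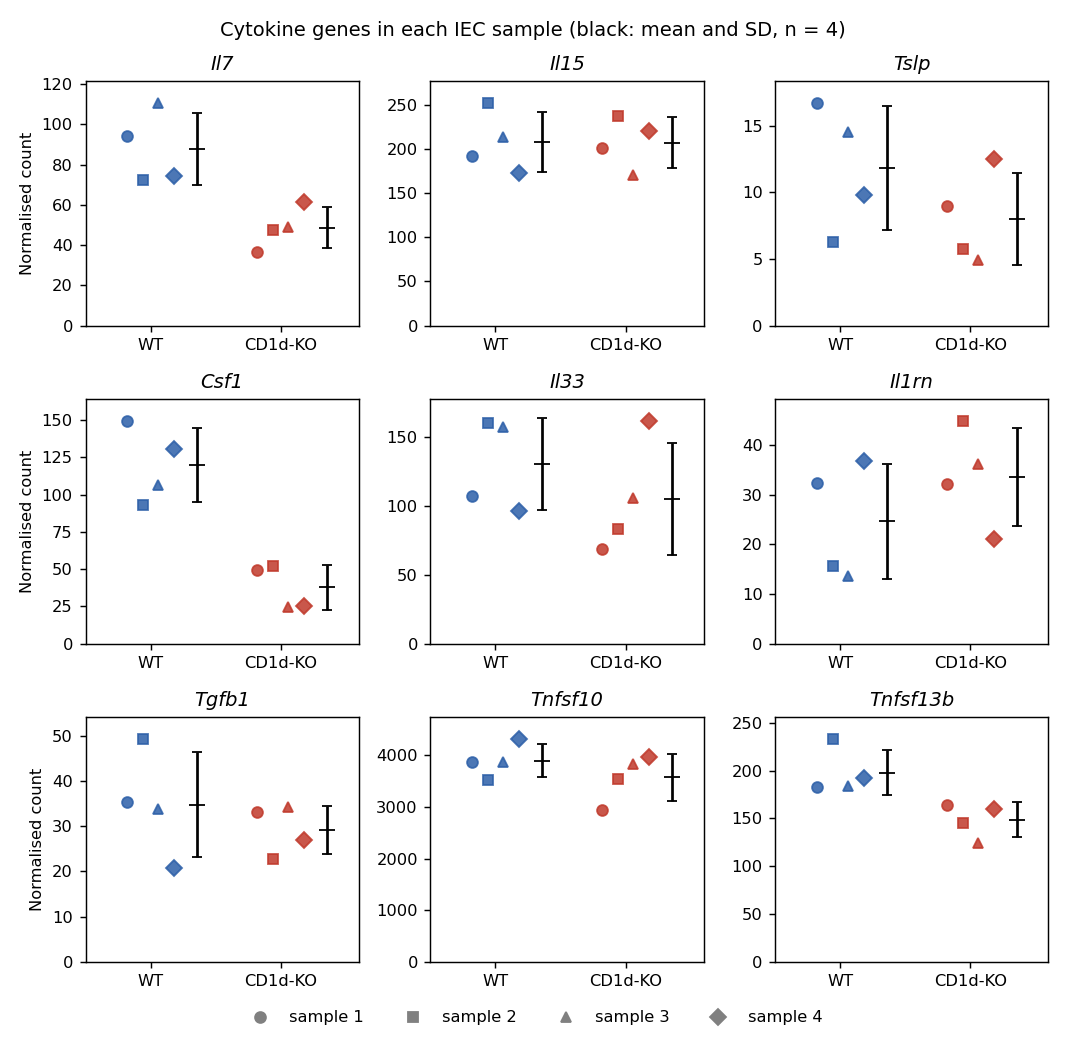
Normalised count (vertical axis, from 0) of each of the 9 cytokine genes in the 4 WT (blue) and 4 CD1d-KO (red) samples, with the marker shape giving the sample number and the black bar the mean and SD. The genotypes are apart for Csf1, Il7 and Tnfsf13b, and overlap for the other 6 genes.

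Csf1 (chromosome 3, 107741048 to 107760469, minus strand, mm10, 4422 exon bases) encodes the ligand on which macrophages depend. Its normalised count was 49.2, 52.4, 24.4 and 25.0 in CD1d-KO 1 to 4 and 149, 93.3, 107 and 131 in WT 1 to 4. Every CD1d-KO sample was below every WT sample, and the lowest WT value was 1.78 times the highest CD1d-KO value. Within the CD1d-KO group the samples formed pairs, 1 and 2 near 50 and 3 and 4 near 25, and the lower pair was the one without Y-linked counts. The group means were 37.7 ± 15.1 and 120.0 ± 24.9 (SD, n = 4 each), giving -1.67 ± 0.28 on the log2 scale (SE, DESeq2 adjusted p = 7.39e-07), which is 0.315 of the WT level with a 95% interval from 0.216 to 0.461. Permuting the genotype labels over all 70 assignments (exact permutation test, two-sided) gave p = 0.0286, the smallest this design allows. Raw counts lay between 25 and 152, so counting error alone was 8.11% to 20.0% of a value.

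The call for Csf1 held in all 16 alternative fits, with log2 fold changes from -2.42 to -1.51 and adjusted p-values from 2.1e-09 to 0.0122. Among the samples without Y-linked counts it was -2.28 ± 0.33, and without WT 1, the sample with the highest value, it was -1.54 ± 0.31 (DESeq2 adjusted p = 0.000105).

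Il7 (chromosome 3, 7572028 to 7613760, minus strand, 3590 exon bases) encodes a survival factor for T cells and innate lymphoid cells that IECs are known to make. The CD1d-KO samples had 36.7, 47.6, 48.9 and 61.5 normalised counts and the WT samples 94.3, 72.3, 110.5 and 74.6. The ranges were apart, although CD1d-KO 4 and WT 2 lay close to each other. Means were 48.7 ± 10.1 in CD1d-KO and 87.9 ± 18.0 in WT (SD, n = 4 each), and the log2 fold change was -0.86 ± 0.24 (SE, DESeq2 adjusted p = 0.0128), or 0.551 of the WT level with a 95% interval from 0.399 to 0.760. The exact permutation p was again the smallest possible, 0.0286. Unlike Csf1, Il7 was called in 8 of 16 alternatives. It lost the call with edgeR (adjusted p = 0.0763), when CD1d-KO 1, CD1d-KO 2, WT 1 or WT 3 was left out (DESeq2 adjusted p from 0.0713 to 0.117), among the samples without Y-linked counts (-0.67, adjusted p = 0.325), and once the stomach score was a covariate (-0.30, adjusted p = 0.914).

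**Figure D2:**
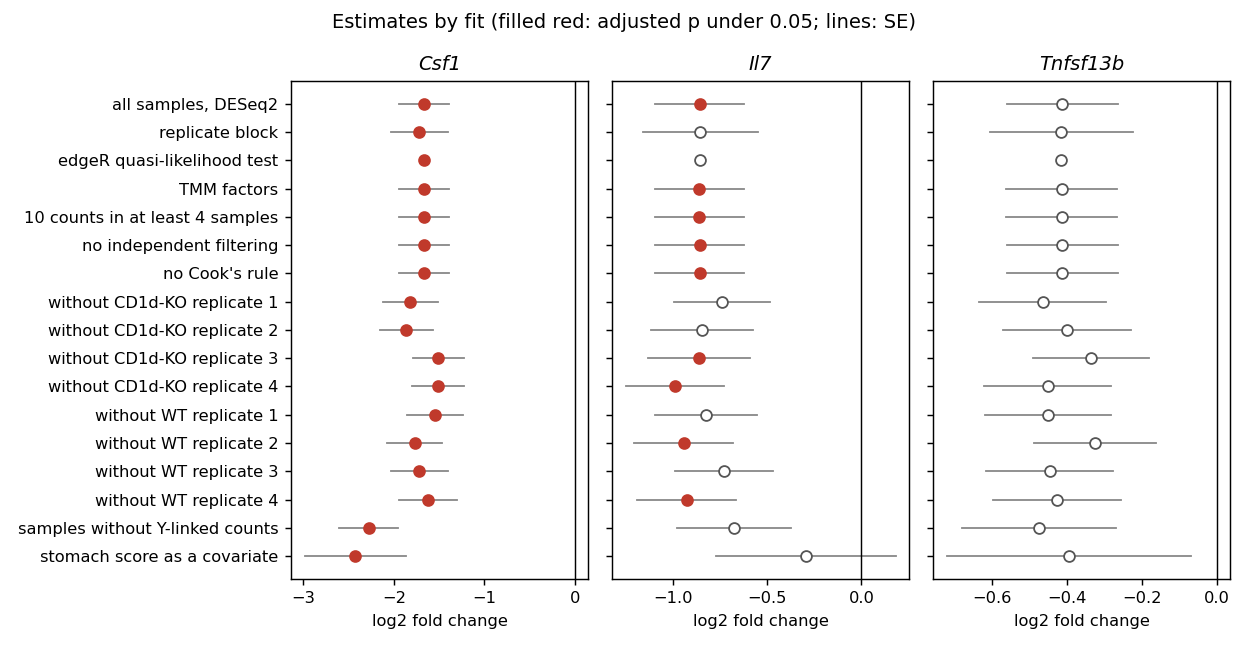
Estimated log2 fold change (horizontal axis, CD1d-KO over WT) of Csf1, Il7 and Tnfsf13b in each fit (rows), with lines for the SE where the tool gives one and filled red points where the adjusted p was under 0.05. Csf1 is called in every row, Il7 in the fit on all samples and 8 of 16 alternatives, and Tnfsf13b in none.

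IL-15 acts on the same receptor chains as IL-2 and, in the epithelium, is shown to lymphocytes on the IL-15 receptor alpha chain. Il15 (chromosome 8, 82331624 to 82402586, minus strand, 1285 exon bases) had 201, 237, 170 and 220 normalised counts in CD1d-KO 1 to 4 and 191, 252, 213 and 172 in WT 1 to 4. Both ranges covered nearly the same values. The means, 207 ± 28.7 and 207 ± 34.0 (SD, n = 4 each), gave a log2 difference of -0.0023 ± 0.16 (SE, DESeq2 adjusted p = 0.998) with a 95% interval from -0.31 to 0.30. A difference beyond about 1.2-fold in either direction thus lay outside the interval, whose bounds were 0.807 and 1.24 of the WT level.

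Il15ra, the chain that presents IL-15, was called lower in CD1d-KO IECs. It had 333, 323, 382 and 440 normalised counts in CD1d-KO 1 to 4 and 491, 510, 462 and 499 in WT 1 to 4. All CD1d-KO values were below the WT values, with CD1d-KO 4 the nearest to them. The log2 fold change was -0.41 ± 0.11 (SE, DESeq2 adjusted p = 0.0149). It was called in 8 of 16 alternatives and not with edgeR (adjusted p = 0.0858), nor among the samples without Y-linked counts (-0.25, DESeq2 adjusted p = 0.477), and the stomach score as a covariate moved it most, to -0.17 ± 0.23 (SE, adjusted p = 0.886). Whether the difference of Il15ra exceeds that of Il15 was not tested.

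TSLP and IL-33 had wide intervals. Tslp (chromosome 18, 32815383 to 32819799, plus strand) was the least abundant of the 9, counted 10, 6, 5 and 13 times in CD1d-KO 1 to 4 and 17, 6, 15 and 8 times in WT 1 to 4. Its log2 fold change, -0.57 ± 0.55 (SE, DESeq2 adjusted p = 0.720), had a 95% interval from -1.66 to 0.52, so that a loss as large as that of Il7 would lie within it. Il33 (chromosome 19, 29925113 to 29960717, plus strand) had 68.8, 82.9, 106 and 161 normalised counts in the CD1d-KO samples and 107, 160, 157 and 96.6 in the WT samples. CD1d-KO 4 reached the highest value of all 8 samples, and the CD1d-KO values spread over more than the whole WT range. The log2 fold change was -0.32 ± 0.27 (SE, DESeq2 adjusted p = 0.653), and leaving out CD1d-KO 4 gave -0.61 (adjusted p = 0.171).

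Crlf2, the chain that binds TSLP, was called lower in CD1d-KO IECs. Its normalised counts were 76.9, 79.1, 75.3 and 73.9 in CD1d-KO 1 to 4 and 153, 116, 131 and 95.4 in WT 1 to 4. The CD1d-KO samples were nearly equal and all below the lowest WT sample. The log2 fold change was -0.71 ± 0.19 (SE, DESeq2 adjusted p = 0.00827), called in 10 of 16 alternatives, and not with edgeR (adjusted p = 0.0587) or without WT 1 (DESeq2 adjusted p = 0.0982), and at -0.90 ± 0.41 (SE, adjusted p = 0.428) with the stomach score. The second TSLP receptor chain, Il7r, and the IL-33 receptor, Il1rl1, had mean normalised counts of 0.981 and 0 over all 8 samples.

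Among the members of the TNF family, Tnfsf13b (chromosome 8, 10006467 to 10035999, plus strand, 1864 exon bases), which encodes BAFF, had 165, 145, 124 and 160 normalised counts in CD1d-KO 1 to 4 and 183, 233, 184 and 192 in WT 1 to 4. The ranges did not overlap. The means of 148 ± 18.3 and 198 ± 23.6 (SD, n = 4 each) differed by more than either SD. The log2 fold change was -0.41 ± 0.15 (SE), with a DESeq2 adjusted p = 0.096, which missed the threshold (unadjusted 0.0055). None of the 16 alternatives called it, and adjusted p-values ran from 0.085 to 0.771.

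Tnfsf10 (chromosome 3, 27317077 to 27339665, plus strand, 4944 exon bases), which encodes TRAIL, was the best measured of the 9, with counting error of at most 1.74%. It had 2945, 3549, 3843 and 3967 normalised counts in CD1d-KO 1 to 4 and 3872, 3526, 3873 and 4311 in WT 1 to 4. CD1d-KO 1 was the lowest sample and the other 3 lay inside the WT range. The log2 fold change was -0.12 ± 0.10 (SE, DESeq2 adjusted p = 0.634), with a 95% interval from -0.32 to 0.073.

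TGF-beta 1 and IL-1 receptor antagonist are brakes on inflammation. Tgfb1 (chromosome 7, 25687002 to 25705077, plus strand) had 33.1, 22.9, 34.2 and 26.9 normalised counts in the CD1d-KO samples and 35.3, 49.3, 33.9 and 20.8 in the WT samples. WT 2 and WT 4 were the highest and the lowest of all samples, and the log2 fold change was -0.26 ± 0.32 (SE, DESeq2 adjusted p = 0.814). Il1rn (chromosome 2, 24336860 to 24351491, plus strand) was the only one of the 9 with a positive estimate, 0.46 ± 0.39 (SE, DESeq2 adjusted p = 0.665). Its values were 32.2, 44.8, 36.2 and 21.1 in the CD1d-KO samples and 32.4, 15.7, 13.6 and 36.7 in the WT samples, which overlapped.

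**Figure D3:**
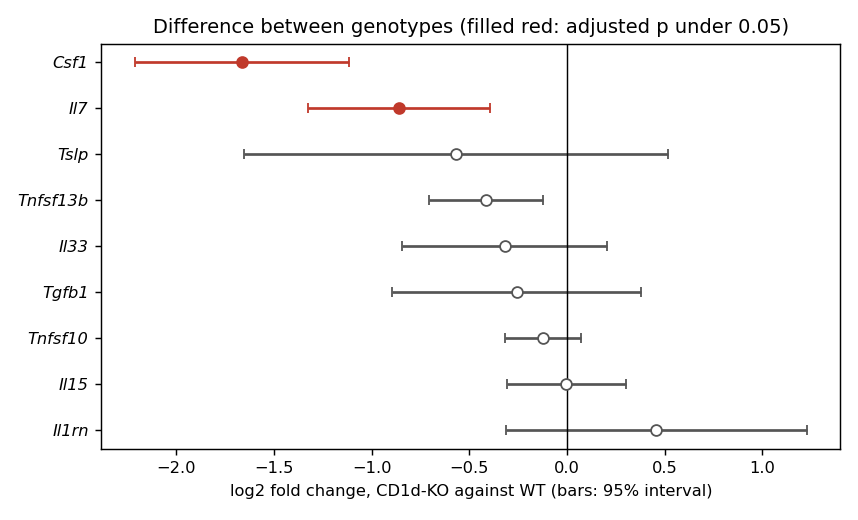
Log2 fold change of each of the 9 cytokine genes (points; horizontal axis, CD1d-KO over WT) with its 95% interval (bars), ordered by estimate, with filled red points for an adjusted p under 0.05. The intervals of Csf1, Il7 and Tnfsf13b exclude 0, and that of Tslp, the least abundant gene, runs from -1.66 to 0.52.

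The receptors of these 9 cytokines were counted in the same IECs. Of 17 receptor genes, 11 were tested, 2 were called lower (Il15ra and Crlf2) and 0 higher, with 4 at an unadjusted p under 0.05. Across all genes tested, 4.03% were called and 2.38% were called lower. The median log2 fold change of the 11 was -0.65, the value of Tgfbr3, a scarce gene with means of 7.40 in CD1d-KO and 11.5 in WT. Of the 11, 5 were scarce, with group means of at most 22.3 normalised counts, and all 5 had negative estimates. The other 6 were Il15ra, Crlf2 and 4 with positive estimates. Among these 4, Il1rap, the shared partner chain of the IL-1 and IL-33 receptors, had 546, 536, 483 and 505 normalised counts in CD1d-KO 1 to 4 and 430, 444, 462 and 428 in WT 1 to 4, without overlap (0.23 ± 0.09, SE, DESeq2 adjusted p = 0.121, not called). With edgeR 0 receptors were called, and 0 in the samples free of Y-linked counts, without WT 1, or with the stomach score. Tgfbr1 and Tgfbr2, the TGF-beta receptor kinases, were not called and had estimates of 0.15 ± 0.08 and 0.17 ± 0.10 (SE), although Tgfbr2 was called higher without CD1d-KO 4. The TRAIL receptor gene Tnfrsf10b was not called either, at 0.08 ± 0.10. Csf1r, the CSF1 receptor of macrophages, was near absent, with 2.81 ± 3.01 normalised counts in CD1d-KO and 1.77 ± 2.07 in WT (SD, n = 4 each), and it received no adjusted p.

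Another 36 cytokine genes of epithelium and immune cells were listed, 21 of which were tested. None was called with DESeq2 or edgeR, 3 had an unadjusted p under 0.05, 16 of 21 estimates were negative, and the median log2 fold change was -0.19. The 3 smallest p-values belonged to Ltb, Tnfsf13 and Il17c. Ltb, a subunit of lymphotoxin, had 6.26, 12.4, 6.84 and 5.76 normalised counts in the CD1d-KO samples and 25.5, 21.0, 9.70 and 22.0 in the WT samples (-1.32 ± 0.50, DESeq2 adjusted p = 0.119). Tnfsf13, which encodes the BAFF relative APRIL, stood at -0.39 ± 0.16 (adjusted p = 0.158), beside the -0.41 of Tnfsf13b. Il17c was low in both genotypes, between 0.978 and 10.5 normalised counts (-1.43 ± 0.68, adjusted p = 0.282).

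Genes for the release, activation or capture of cytokines were not called. Of 17 such genes, 14 were tested, 0 were called by DESeq2 or edgeR, 2 had an unadjusted p under 0.05 and the median was -0.047. The proteases Adam10 and Adam17, which shed membrane-bound cytokines and receptors, had estimates of 0.0018 ± 0.08 and 0.0060 ± 0.07 (SE). Thbs1, whose product can activate latent TGF-beta, had the smallest p, with 292, 282, 251 and 350 normalised counts in the CD1d-KO samples and 272, 241, 178 and 168 in the WT samples. Its estimate was 0.45 ± 0.17 (DESeq2 adjusted p = 0.127), and of the 16 alternatives only the fit without WT 1 called it, as higher. Il18bp, which captures IL-18, was at -0.33 ± 0.14 (adjusted p = 0.197), and Sigirr, an inhibitory receptor of the IL-1 family, at -0.14 ± 0.07 (adjusted p = 0.368).

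Il15, Tnfsf10 and Tnfsf13b are known targets of interferon in many cell types, and the study reports that interferon-gamma raised Il7 in intestinal organoids. A list of interferon-induced genes was therefore read beside these cytokine genes. Of its 12 genes, all were tested and 8 were called lower (66.7%, beside 2.38% of all genes tested), with a median of -0.70. They were the regulators Irf1 (-0.33 ± 0.07, DESeq2 adjusted p = 0.000465), Irf9 (-0.45 ± 0.08, 9.16e-06) and Stat2 (-0.55 ± 0.10, 1.94e-05), the antigen processing genes Tap1 (-0.68 ± 0.15, 0.000639) and Psmb9 (-0.69 ± 0.17, 0.00373), the ubiquitin-like gene Ubd (-2.36 ± 0.46, 4.1e-05), the chemokine gene Cxcl9 (-2.53 ± 0.67, 0.00859) and Nlrc5 (-2.15 ± 0.68, 0.0453), a regulator of MHC class I genes. The estimates of Il15 and Tnfsf10, -0.0023 and -0.12, were closer to 0 than that of any gene of the list. That of Tnfsf13b, -0.41, lay between those of Irf1 and Irf9, and that of Il7, -0.86, between those of Psmb9 and Nlrc5. Among the samples without Y-linked counts 6 of the 12 were called, without WT 1 there were 5, and 0 with the stomach score in the fit.

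**Figure D4:**
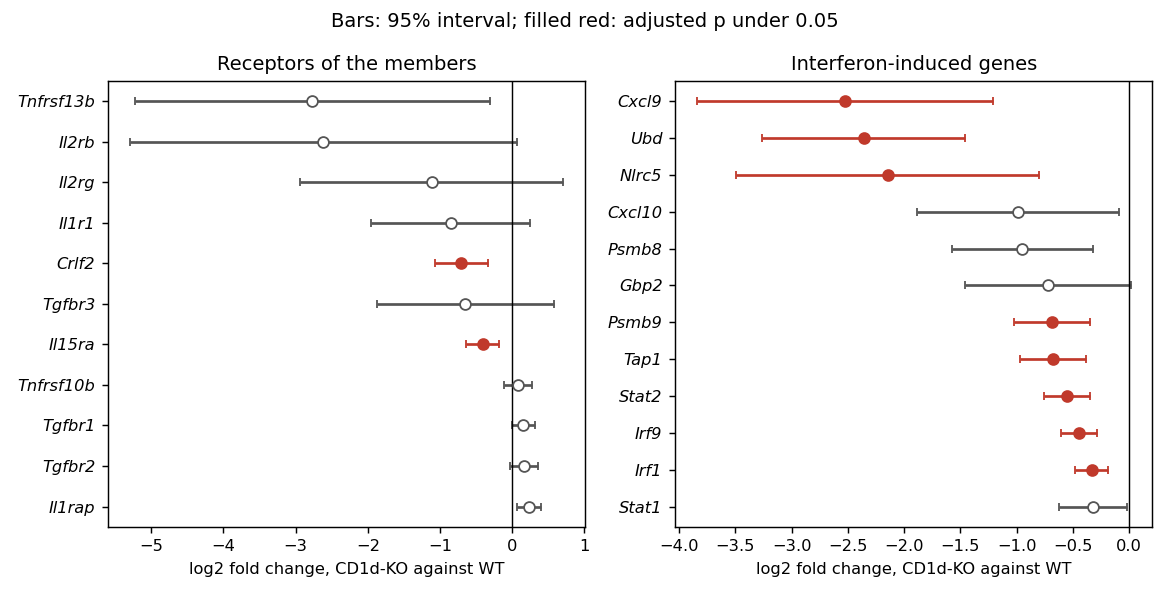
Log2 fold change with 95% interval (horizontal axis, CD1d-KO over WT) of the 11 tested receptor genes (left) and the 12 interferon-induced genes (right), with filled red points for an adjusted p under 0.05. On the left Crlf2 and Il15ra are called, and on the right all 12 estimates are below 0 and 8 are called.

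Some marker genes of other cells also differed between the groups. The 14 T and NK cell markers summed to between 87.6 and 189 normalised counts in CD1d-KO and between 126 and 785 in WT, the highest being WT 1. Of the 12 tested, 11 were lower and 2, Cd3g and Cd8a, were called. Cd4 was at 0 in all CD1d-KO samples and in 3 of the 4 WT samples, and received no adjusted p. For B and plasma cells the sums of 7 markers were 55.7 to 82.9 in CD1d-KO and 109 to 624 in WT, again highest in WT 1, with 2 of 7 called lower, Jchain among them. The 12 myeloid markers summed to between 1035 and 1312 in CD1d-KO and between 1363 and 2007 in WT, with Itgam and Cd14 called lower of the 7 tested. Itgam (means of 758 in CD1d-KO and 1003 in WT) and Cd14 (262 and 414) made up most of these sums. Cd68 averaged 118 ± 32.5 normalised counts in CD1d-KO and 161 ± 71.7 in WT (SD, n = 4 each), and was not called. Other macrophage markers were low in both genotypes. Itgax averaged 2.10 normalised counts in CD1d-KO and 7.30 in WT, Adgre1 0.687 and 1.61, and Tyrobp 0.240 and 1.28. Itgax was not called, and Adgre1 and Tyrobp received no adjusted p. C1qa averaged 4.52 normalised counts in CD1d-KO and 5.21 in WT, Csf1r 2.81 and 1.77, Lyz2 19.7 and 13.7, and Fcer1g 10.7 and 10.9. C1qb and C1qc were at 0 in CD1d-KO and reached at most 4.91 and 2.45 in a WT sample. C1qa, Lyz2 and Fcer1g were not called, and Csf1r, C1qb and C1qc received no adjusted p. Stromal and endothelial markers mark cells known to make both CSF1 and IL-7. Their sums over 14 genes overlapped, at 593 to 812 in CD1d-KO and 538 to 648 in WT, with 1 of the 6 tested lower and 0 called. Vim (means of 348 against 284 in WT), Lyve1 (192 against 158) and Pdgfrb (139 against 120) supplied most of each sum. Col1a1, Col1a2, Col3a1, Dcn, Pdgfra and Kdr averaged at most 2.77 normalised counts in either genotype and received no adjusted p. Lum and Cdh5 were counted in 1 WT sample alone. With these genes so scarce, the sums do not show whether cells that make CSF1 or IL-7 differed, which was not tested.

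Of these sums of normalised counts, the myeloid, the B and plasma cell and the stomach sums were higher in every WT sample than in any CD1d-KO sample, as Csf1 and Il7 were, while the T and NK cell sums and the stromal sums overlapped. The myeloid sums were mostly Itgam and Cd14, so they do not show whether myeloid cells differed. These myeloid sums were only narrowly apart. As TPM they overlapped, reaching 44.4 in CD1d-KO against a lowest value of 44.0 in WT. The stomach score, the mean centred log2 level of the 13 stomach genes, was at most 0.19 in CD1d-KO and at least 0.98 in WT, so a fit that holds it has little left to tell the genotypes apart. In that DESeq2 fit Csf1 was at -2.42 ± 0.56 (SE, adjusted p = 0.00456). Il7 was at -0.30 ± 0.48 (SE), with an SE of 0.24 in the fit without the score, and its 95% interval still held -0.86. The part of the lymphocyte, myeloid and stomach markers in the Csf1 and Il7 differences was not tested beyond this.

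**Figure D5:**
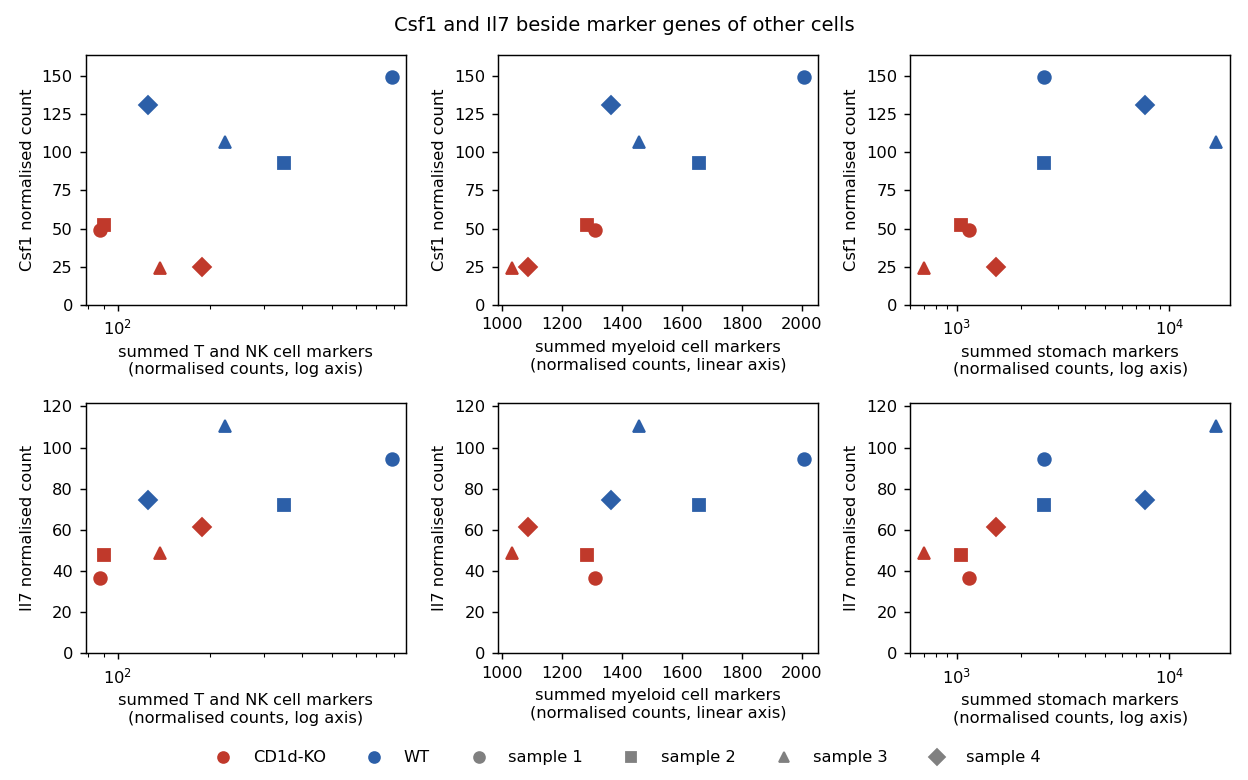
Normalised count of Csf1 (top) and Il7 (bottom) against the summed normalised counts of T and NK cell, myeloid and stomach markers (horizontal axes; logarithmic for T and NK cell and stomach markers, linear for myeloid ones), 1 point per sample, CD1d-KO in red and WT in blue. All CD1d-KO points lie below all WT points on the vertical axes, and also to the left of them for myeloid and stomach markers, while the T and NK cell sums overlap.

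The profiles of the called genes over the 8 samples were compared with those of 11720 genes whose normalised counts averaged 50 or more, as Pearson's r of log2(normalised count + 1). All samples share the genotype difference, so genes that differ between the groups score high. Irf3 (0.98), a transcription factor of the type I interferon response, Ccdc116 (0.968) and Clu (0.953), which encodes clusterin, were the most like Il7. Akr1b10 (0.976), an aldo-keto reductase, Ubqln4 (0.975), a ubiquilin, and Tmppe (0.971) were the most like Csf1. Il7 and Csf1 were less like each other, at 0.688, and Csf1 and Tnfsf13b stood at 0.742. Both were unlike Il15, at 0.023 for Il7 and 0.005 for Csf1.

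Csf1, Il7 and Tnfsf10 lie on the chromosome that carries the deleted Cd1d1, at 20.8 Mb beyond it (Csf1) and at -79.4 and -59.7 Mb, on the other side of it (Il7 and Tnfsf10). Within 1 Mb of Csf1, 2 of 39 other tested genes were called (5.13%, Cd53 and Gstm6), near the 4.03% of all genes tested. Around Il7, 0 of 2 were called. On the side of Cd1d1 where Csf1 lies, windows of 5 Mb going outward from Cd1d1 held 13 called of 107 tested genes (12.2%), 1 of 96 (1.04%), 4 of 31 (12.9%), 2 of 46 (4.35%) and 2 of 44 (4.55%). Csf1 lies in the last of these windows and was left out of its counts. The shares did not fall steadily with distance. Whether the CD1d-KO mice carry DNA of another strain around the deletion was not tested.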

How the data were processed

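Poly(A) libraries (KAPA mRNA kit, NovaSeq) of 4 CD1d-KO and 4 WT samples were used, grouped by the genotype in the labels. The authors deposited 1 table of raw counts per gene with no normalization. Per the file headers, featureCounts 1.6.4 counted read pairs over exons by gene, primary alignments only, without strand, leaving out pairs that overlap several genes. The header names an mm10 annotation and the study's methods name HISAT2 against GRCm39. Coordinates here are mm10. The members' GRCm39 starts lie 22630 to 722602 bases away, so had reads been counted across builds the members' exons would have missed their reads. The aligner's version was not given in the sources used here. Of the 25239 genes, 19088 had a count, and 0 per-sample columns were left unused. No gene named as a member shares exon bases with another gene in the table.

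The 9 members and all gene lists were chosen with earlier results of these data known. CD1d-KO was compared with WT in DESeq2 1.42.0 (R 4.3.3, the study's tool) over the whole table, with genotype as the only term, size factors from the median of ratios, and independent filtering at a mean of 2.41 (3638 genes without an adjusted p). Cook's rule left 4 genes without a p. Adjustment was by Benjamini-Hochberg over 15446 genes. Normalised counts are counts over size factors. TPM values were computed from the counts and the table's exon lengths. The 95% intervals are Wald intervals, and intervals and counting errors cover no PCR duplication. The permutation test used log2(normalised count + 1). Alternatives were a replicate block, edgeR 4.0.16 (quasi-likelihood), TMM factors, at least 10 counts in 4 samples, no independent filtering, no Cook's rule, each sample left out, the 6 samples without Y-linked counts, and the mean centred log2 level of the stomach genes as a covariate. The fitting steps were tested on simulated data.

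Named were the 9 members, Cd1d1, the called genes of each pathway list or else the 3 with the smallest p, and for each called member the 3 genes most like it. Other genes named, among them markers, the receptors Il7r, Il1rl1, Il1rap, Csf1r, Tgfbr1, Tgfbr2 and Tnfrsf10b, Adam10, Adam17, Cd53 and Gstm6, were chosen after their values were seen. Il7, Il15 and Tslp promoters were not used here. The values of 1 marker gene are not reported here.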

Additional observations from a re-analysis of the deposited data

How the results depend on the processing

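Csf1 was called in every one of 16 alternative fits and Il7 in 8 of them, so that the number of the 9 cytokine genes called was 2 or 1. It was 1 with edgeR, with the replicate block, with the stomach score and in the 6 samples without Y-linked counts, and between 1 and 2 when a sample was left out. The 622 called genes of the whole table became 228 with edgeR, 372 in the samples free of Y-linked counts and 110 with the stomach score, and 323 to 646 when a sample was left out (323 without CD1d-KO 2, 406 without WT 1 and 385 without WT 2). Whether the replicate numbers of the labels pair the samples is not known. Deviations of same-numbered samples correlated at 0.285, 0.025, 0.221 and 0.004, and those of differently numbered samples at -0.354 to 0.355, which is too few pairs to decide it. With the replicate block the 9 genes had 1 call, with Il7 at -0.86 and an adjusted p = 0.101, and Il15 turned to 0.00065.

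Directions of genes that were not called turned in some fits. With the stomach score they were 0.020 for Il15, 0.52 for Il33, 0.16 for Tslp, 0.13 for Tnfsf10 and -0.58 for Il1rn, and in the samples free of Y-linked counts 0.034 for Il33 and 0.0052 for Tnfsf10. Il15 ran from -0.079 to 0.10 when a sample was left out. The cause of these shifts was not tested. Tslp received no adjusted p under the filter of 10 counts. Depth limits Tslp most, where counting error was 24.3% to 44.7% of a count, against 1.56% to 1.74% for Tnfsf10.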
